A study of Mus musculus with 12 samples.

Results

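Expression of 10 genes that mark injured, transitional and basal epithelium was followed in mouse lung: the keratins Krt5, Krt7, Krt8, Krt14, Krt17, Krt18 and Krt19, the adaptor gene Sfn, the tight junction gene Cldn4 and the transcription factor gene Trp63. The genes were chosen by name with earlier results of these data known, so shares set beside those of all genes are descriptive. All 10 are among the 18194 genes measured. They are read by 18 probe sets of their own and by 1 more that cannot tell Krt17 from Krt14, of 45101 probe sets in all.

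Total RNA came from the PBS-perfused lungs of C57BL/6 mice, 21 days after saline or bleomycin had been placed in the trachea. The 4 groups were wild type lungs given saline, wild type lungs given bleomycin, FIZZ2 knockout lungs given saline and FIZZ2 knockout lungs given bleomycin, with 3 Affymetrix arrays in each. Bleomycin is an antitumour drug that breaks DNA and scars the mouse lung, and FIZZ2 is RELM-beta, a secreted protein encoded by Retnlb. The knockout allele, the bleomycin dose and the age and sex of the mice were not given in the sources used here. Nothing states that the 3 samples of a group are separate animals, so the p-values cover only the spread among the samples at hand, which may be technical.

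Keratins are intermediate filament proteins that assemble as pairs of a type I and a type II chain and give epithelial cells their mechanical strength. Krt7 and Krt8 (type II) and Krt18 and Krt19 (type I) are chains of simple epithelia such as those of the alveoli and airways, while Krt5 (type II) pairs with Krt14 (type I) in basal cells, whose identity depends on p63, the product of Trp63. After lung injury, alveolar type 2 cells on their way to type 1 cells pass through a state known for high Krt8, Krt18, Krt19, Sfn and Cldn4, and severe injury can bring Krt5-positive, Trp63-positive basal-like cells into the alveoli. In whole-lung RNA, fewer or more cells of a type and less or more RNA per cell cannot be told apart.

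Krt5, Krt7, Krt8 and Krt18 lie in the keratin cluster of chromosome 15 of the mouse genome (RefSeq, GRCm38.p6), Krt14, Krt17 and Krt19 in that of chromosome 11, Sfn on chromosome 4, Cldn4 on chromosome 5 and Trp63 on chromosome 16. Krt18 is the type I keratin that lies beside the type II genes, and its start is 23.9 kb from that of its partner Krt8, on the opposite strand. RefSeq promoter windows around the transcript start were at hand for 7 of the 10 genes, Krt5, Krt7, Krt8, Krt14, Krt18, Sfn and Cldn4. Shown here are those of the filament pair and of the genes with the largest changes: Krt8 (chr15:102004293-102004592, minus strand), Krt18 (chr15:102027966-102028265, plus strand), Sfn (chr4:133602119-133602418, minus strand) and Cldn4 (chr5:134946885-134947184, minus strand), each 5′ to 3′ along the gene. Capitals mark matches on either strand to CAGGTG, the E-box bound by Snail and Zeb, and to TGANTCA, the AP-1 motif.
Krt8: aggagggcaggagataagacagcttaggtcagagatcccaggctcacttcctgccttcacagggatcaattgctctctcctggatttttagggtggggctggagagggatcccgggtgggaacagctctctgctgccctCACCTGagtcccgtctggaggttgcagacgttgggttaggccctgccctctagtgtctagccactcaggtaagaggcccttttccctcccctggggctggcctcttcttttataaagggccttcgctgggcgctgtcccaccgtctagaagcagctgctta
Krt18: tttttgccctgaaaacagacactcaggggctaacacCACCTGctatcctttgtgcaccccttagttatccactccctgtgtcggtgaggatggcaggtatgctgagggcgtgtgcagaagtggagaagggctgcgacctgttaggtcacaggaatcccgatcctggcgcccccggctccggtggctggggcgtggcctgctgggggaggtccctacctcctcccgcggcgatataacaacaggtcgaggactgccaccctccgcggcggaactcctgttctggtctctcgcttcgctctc
Sfn: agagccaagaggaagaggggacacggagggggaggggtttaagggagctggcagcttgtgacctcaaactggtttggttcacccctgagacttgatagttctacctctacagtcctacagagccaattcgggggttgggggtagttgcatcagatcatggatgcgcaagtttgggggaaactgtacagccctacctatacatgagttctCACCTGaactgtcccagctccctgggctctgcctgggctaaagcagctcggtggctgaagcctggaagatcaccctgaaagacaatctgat
Cldn4: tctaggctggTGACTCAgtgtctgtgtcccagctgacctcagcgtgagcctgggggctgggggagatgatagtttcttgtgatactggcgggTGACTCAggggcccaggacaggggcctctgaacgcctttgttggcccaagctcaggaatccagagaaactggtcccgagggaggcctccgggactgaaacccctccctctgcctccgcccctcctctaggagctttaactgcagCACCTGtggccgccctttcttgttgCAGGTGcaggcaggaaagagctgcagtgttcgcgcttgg
The E-box letters were found in 6 of the 7 windows (all but Krt14) and in 20.2% of 32851 windows of the same length. The AP-1 letters were found in that of Cldn4, at 2 places, and in 7.81% of all windows. On either strand, the TEAD motif GGAATG was in the window of Krt14 (14.7% of all), TATAAA in that of Krt8 (13.6%, with its matches on both strands overlapping), the GC box GGGCGG in those of Krt7 and Cldn4 (35.7%) and the p53 family half-site in that of Krt5 (8.36%). The Krt14 window (chr11:100205981-100206280, minus strand) lies inside the span that RefSeq gives the gene (100203162 to 100207510), so it may be that of a shorter transcript, and what it holds or lacks may not apply to the start of the full-length gene. All are matches of letters, and binding was not measured.

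The arrays were alike in overall signal, with medians between 5.58 and 5.68 on the log2 scale and correlations across probe sets of 0.988 to 0.997 within a group (probe sets are not independent replicates). Retnlb, the targeted gene, lay between 3.49 and 4.13 on all 12 arrays, too dim to check the genotype labels. The first wild type bleomycin array stood apart in epithelial genes: the mean log2 level of 13 pan-epithelial markers was 8.26 on it against 8.76 and 8.83 on the others of its group, and that of 11 alveolar type 2 markers was 11.75 against 12.38 and 12.34. The calls of the 10 genes and the counts of the gene lists are therefore also given without this array. For the lists this alternative was chosen after seeing the data. Without it 11.9% of all genes were called higher and 11.4% lower with bleomycin in wild type lungs, and 4.59% higher and 5.65% lower in knockout than in wild type bleomycin lungs.

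In wild type lungs 5 of the 10 genes rose with bleomycin and 0 fell. Cldn4 rose 3.47-fold, Sfn 3.44-fold, Krt14 1.98-fold, Krt18 1.55-fold and Krt8 1.40-fold. A gene was called at an adjusted p under 0.05 in limma's moderated test, with Benjamini-Hochberg adjustment over all 18194 genes; 27.7% of all genes were called in that comparison and 13.3% were called higher. The log2 changes of the 10 genes had a median of 0.43, against -0.04 over all genes. Of the 10 genes, 5 (Krt8, Krt14, Krt18, Sfn and Cldn4) had every bleomycin array above every saline array, against 17.2% of all genes.

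**Figure D1:**
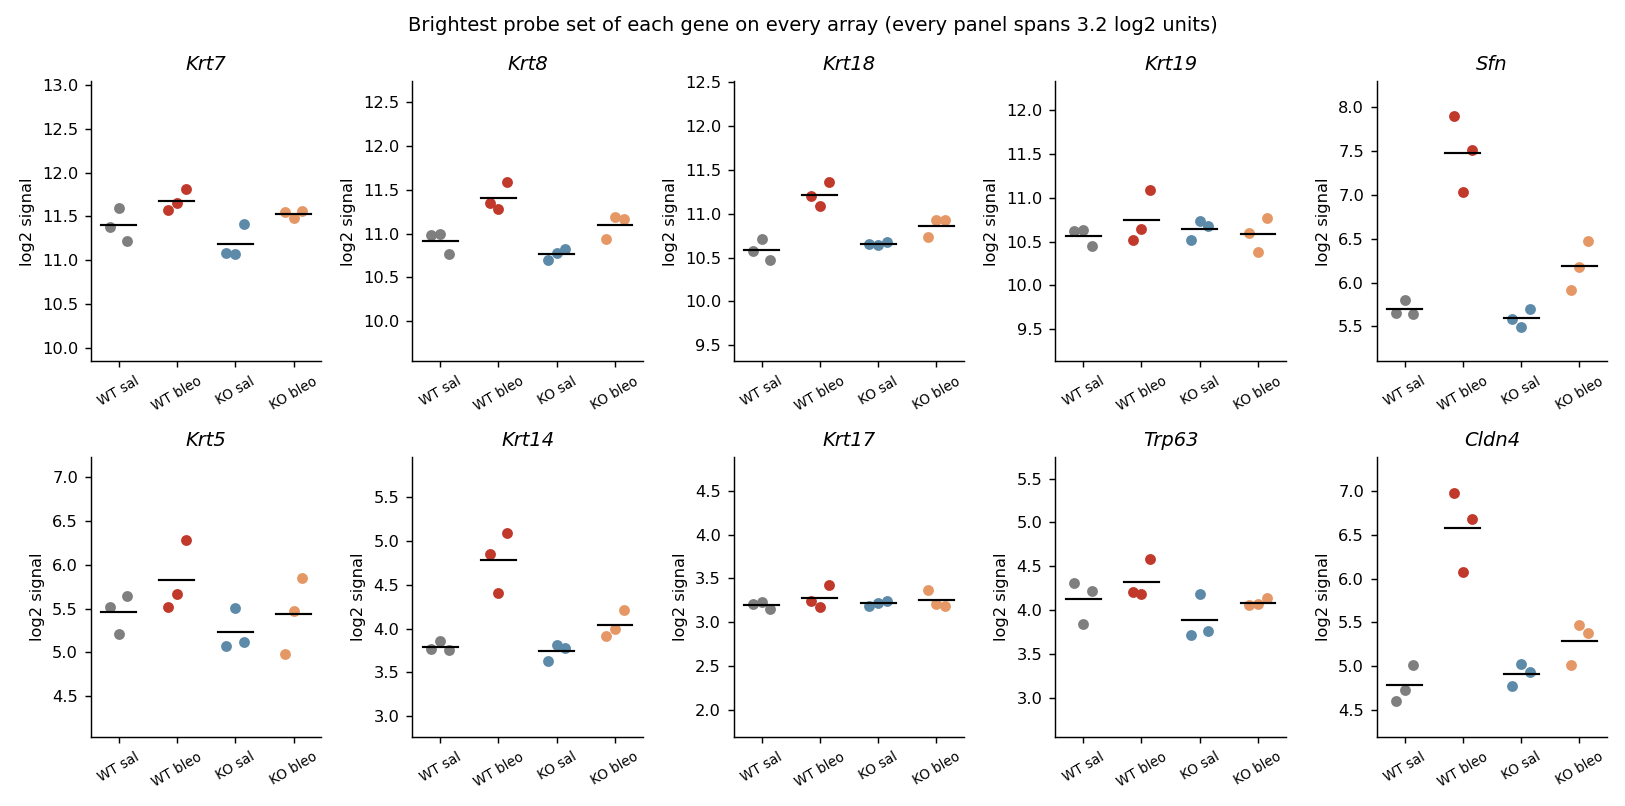
Log2 signal of the brightest probe set of each gene on each of the 12 arrays (points, 3 per group; the line is the group mean; WT, wild type; KO, FIZZ2 knockout; sal, saline; bleo, bleomycin). Sfn and Cldn4 stand highest in the wild type bleomycin lungs (7.04 to 7.91 and 6.07 to 6.98), above every array of the other groups.

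Of the keratins of simple epithelia, Krt8 and Krt18, which pair in the filaments of simple epithelia, rose in wild type lungs. The log2 signal of Krt8 was 10.99, 10.99 and 10.76 in wild type saline lungs, 11.34, 11.28 and 11.59 in wild type bleomycin lungs, 10.69, 10.78 and 10.82 in knockout saline lungs and 10.94, 11.19 and 11.17 in knockout bleomycin lungs. The bleomycin arrays lay above the saline arrays in each genotype, and the wild type bleomycin arrays lay above all others. The log2 change of Krt8 was 0.49 ± 0.10 (SE, n = 3 per group; limma, adjusted p = 0.00321) in wild type and 0.33 ± 0.10 (adjusted p = 0.102) in knockout lungs. The knockout response minus the wild type response was -0.15 (95% interval -0.47 to 0.16; adjusted p = 0.580), an interval that holds both an equal and a much smaller knockout response.

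Krt18, the type I partner, had a log2 signal of 10.58, 10.71 and 10.47 in wild type saline lungs, 11.20, 11.09 and 11.36 in wild type bleomycin lungs, 10.65, 10.64 and 10.68 in knockout saline lungs and 10.74, 10.93 and 10.93 in knockout bleomycin lungs. The group means ran from wild type bleomycin through knockout bleomycin and knockout saline to wild type saline, and only the saline groups overlapped among neighbours in that order. Its change was 0.63 ± 0.09 (limma, adjusted p = 0.000229) in wild type and 0.21 ± 0.09 (adjusted p = 0.254) in knockout lungs. The difference between the responses was -0.43 (95% interval -0.70 to -0.15, not adjusted) and did not pass over all genes (adjusted p = 0.0755), while it passed with array weights (-0.44, adjusted p = 0.0258). Without the first wild type bleomycin array it did not pass either (-0.44; limma, adjusted p = 0.111).

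Krt7 and Krt19, the other simple keratins, were not called. Krt7 measured 11.38, 11.60 and 11.22 in wild type saline lungs, 11.57, 11.65 and 11.82 in wild type bleomycin lungs, 11.08, 11.07 and 11.41 in knockout saline lungs and 11.55, 11.48 and 11.56 in knockout bleomycin lungs. The wild type groups overlapped and the knockout groups did not. Its change was 0.28 ± 0.11 (limma, adjusted p = 0.0874) in wild type and 0.34 ± 0.11 (adjusted p = 0.131) in knockout lungs. The wild type change of Krt7 was called without wild type saline replicate 2 (0.38, adjusted p = 0.0290) and with array weights (0.34, adjusted p = 0.0115). It was not called without wild type bleomycin replicate 1 (0.34; limma, adjusted p = 0.0774).

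Krt19 measured 10.62, 10.63 and 10.45 in wild type saline lungs, 10.51, 10.64 and 11.09 in wild type bleomycin lungs, 10.52, 10.73 and 10.68 in knockout saline lungs and 10.60, 10.37 and 10.77 in knockout bleomycin lungs. The third wild type bleomycin array lay above the rest, and the groups overlapped. The change of Krt19 was 0.18 (95% interval -0.12 to 0.48; limma, adjusted p = 0.365) in wild type and -0.06 (-0.36 to 0.24; adjusted p = 0.867) in knockout lungs.

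Of the genes of basal cells, Krt14 was called and Krt5, Krt17 and Trp63 were not. Krt5 measured 5.51, 5.21 and 5.65 in wild type saline lungs, 5.52, 5.66 and 6.28 in wild type bleomycin lungs, 5.07, 5.51 and 5.12 in knockout saline lungs and 4.98, 5.48 and 5.85 in knockout bleomycin lungs. The groups overlapped, with the third array highest in both bleomycin groups. The change of Krt5 was 0.36 (95% interval -0.13 to 0.85; limma, adjusted p = 0.262) in wild type and 0.20 (-0.29 to 0.69; adjusted p = 0.705) in knockout lungs.

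Krt14, the partner of Krt5, measured 3.76, 3.86 and 3.76 in wild type saline lungs, 4.85, 4.40 and 5.09 in wild type bleomycin lungs, 3.63, 3.81 and 3.78 in knockout saline lungs and 3.92, 4.0 and 4.21 in knockout bleomycin lungs. It was under a log2 signal of 5, called dim here, on 11 of 12 arrays. On this set, the brightest of 3, the wild type bleomycin arrays lay above all others, and the knockout bleomycin arrays lay above both saline groups. Its change was 0.99 ± 0.14 (limma, adjusted p = 0.000221) in wild type and 0.30 ± 0.14 (adjusted p = 0.288) in knockout lungs. The difference between the responses was -0.69 ± 0.20 (adjusted p = 0.0666). It passed without wild type bleomycin replicate 2 (-0.88, adjusted p = 0.00784), with quantile normalization repeated (-0.73, adjusted p = 0.0464) and with array weights (-0.69, adjusted p = 0.0389). Without wild type bleomycin replicate 1 it did not pass (-0.65; limma, adjusted p = 0.121).

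Trp63 and Krt17, a keratin of basal and wounded epithelium, were dim on all 12 arrays. Trp63 measured 4.31, 3.84 and 4.22 in wild type saline lungs, 4.20, 4.18 and 4.58 in wild type bleomycin lungs, 3.72, 4.18 and 3.76 in knockout saline lungs and 4.05, 4.06 and 4.13 in knockout bleomycin lungs. Krt17 measured 3.21, 3.23 and 3.15 in wild type saline lungs, 3.24, 3.17 and 3.43 in wild type bleomycin lungs, 3.18, 3.22 and 3.24 in knockout saline lungs and 3.37, 3.2 and 3.18 in knockout bleomycin lungs. On these sets, the brightest of each gene, the saline and bleomycin arrays separated in neither genotype, and at such signals a low amount of transcript was not detectable. The log2 change of Trp63 was 0.20 (95% interval -0.12 to 0.52; limma, adjusted p = 0.353) in wild type and 0.20 (-0.13 to 0.52; adjusted p = 0.545) in knockout lungs. For Krt17 the values were 0.08 (-0.10 to 0.26; adjusted p = 0.497) and 0.04 (-0.14 to 0.21; adjusted p = 0.873).

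Krt8, Krt14, Krt17 and Trp63 are read by several probe sets, which did not always move together. All 3 sets of Krt8 rose in wild type lungs, by 0.49, 0.41 and 0.49 on the log2 scale (limma over all 45101 probe sets, of which 18.5% were called; adjusted p = 0.00611, 0.00870 and 0.00858). Of the 3 sets of Krt14, 2 rose (0.99 and 0.77, adjusted p = 0.000509 and 0.00163) and the dimmest had -0.09 (adjusted p = 0.626). The mean of the 3 sets of Krt14 rose by 0.55 (limma over genes, adjusted p = 0.00156), less than its brightest set. In knockout lungs the second set of Krt14 measured 3.57, 3.51 and 3.66 after saline and 3.65, 3.44 and 3.68 after bleomycin, with overlap. The knockout changes of the 3 sets of Krt14 were 0.30, 0.01 and -0.06 (limma over probe sets, adjusted p = 0.346, 0.990 and 0.876), and that of their mean was 0.08 (limma over genes, adjusted p = 0.741). The separation of the knockout arrays was seen on the brightest set of Krt14. With the mean of the sets the difference between the responses was -0.47 (limma, adjusted p = 0.0825). The brightest set of Krt14 and 2 of the 3 sets of Krt8 are of the class that Affymetrix marks as able to bind other transcripts. The set shared by Krt17 and Krt14 had -0.05 (adjusted p = 0.870) and the second set of Krt17 -0.15 (adjusted p = 0.375). Of the 4 sets of Trp63, all dim on every array, the second brightest fell by 0.31 (adjusted p = 0.0259). It measured 4.25, 4.27 and 4.26 in wild type saline and 3.92, 3.89 and 4.04 in wild type bleomycin lungs, without overlap. The other sets of Trp63 had 0.20, -0.07 and -0.01 and did not pass. Which transcripts each set reads was not analysed here.

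**Figure D2:**
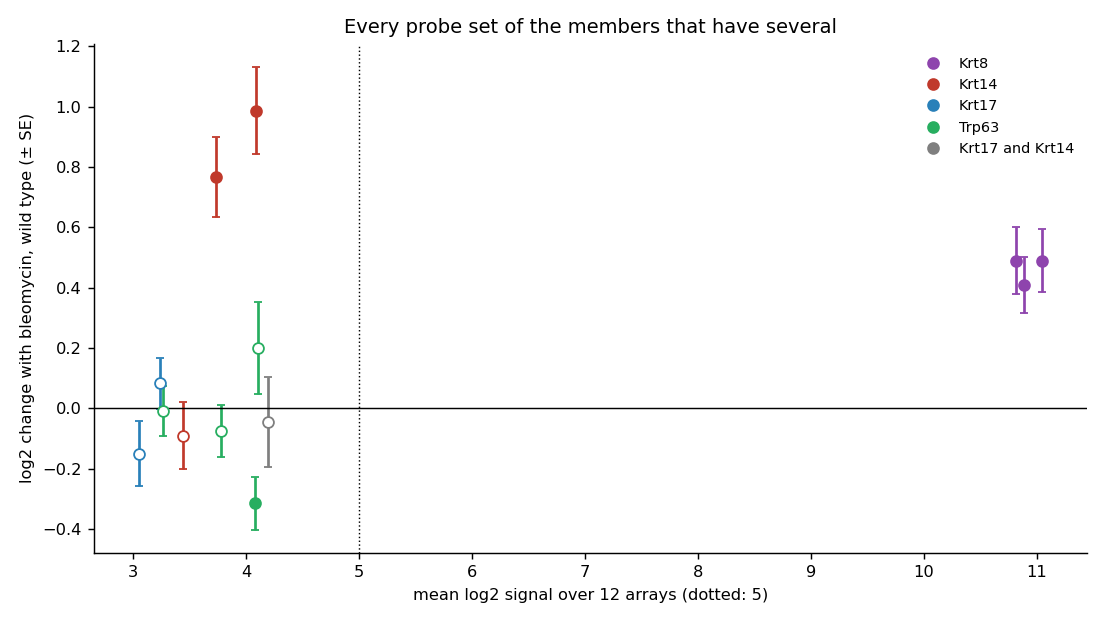
Log2 change with bleomycin in wild type lungs against mean log2 signal for every probe set of Krt8, Krt14, Krt17 and Trp63 and the set shared by Krt17 and Krt14 (points ± SE, limma over all probe sets). The bright Krt8 sets lie between 0.41 and 0.49, while the dim sets of Krt14 run from -0.09 to 0.99.

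Sfn and Cldn4 had the largest changes of the 10 genes. Sfn encodes 14-3-3 sigma, an epithelial adaptor induced by p53 that can hold cells in G2. Its log2 signal was 5.66, 5.80 and 5.64 in wild type saline lungs, 7.91, 7.04 and 7.51 in wild type bleomycin lungs, 5.58, 5.49 and 5.70 in knockout saline lungs and 5.92, 6.18 and 6.47 in knockout bleomycin lungs. Both bleomycin groups lay above both saline groups, and the wild type bleomycin arrays lay above the knockout bleomycin arrays. The wild type change of Sfn was 1.78 ± 0.18 (limma, adjusted p = 1.72e-05), and 1.57 without the first bleomycin array (adjusted p = 3.12e-05). In knockout lungs the change was 0.60 ± 0.18 (adjusted p = 0.0981). It was called when only the knockout groups were fitted (adjusted p = 0.0473), with array weights (0.63, adjusted p = 0.0293) and without wild type bleomycin replicate 1 (adjusted p = 0.0373) or 2 (adjusted p = 0.0440), arrays that enter this test through the shared spread.

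Cldn4 encodes a claudin of tight junctions. Its log2 signal was 4.60, 4.73 and 5.02 in wild type saline lungs, 6.98, 6.07 and 6.68 in wild type bleomycin lungs, 4.77, 5.03 and 4.94 in knockout saline lungs and 5.01, 5.47 and 5.38 in knockout bleomycin lungs. It was dim on 4 arrays, all of them from saline lungs, where the group means were 4.78 in wild type and 4.91 in knockout lungs. The wild type bleomycin arrays lay above all others, and the knockout bleomycin arrays overlapped with both saline groups. The wild type change of Cldn4 was 1.79 ± 0.20 (limma, adjusted p = 2.71e-05), and 1.59 without the first bleomycin array (adjusted p = 8.26e-05). In knockout lungs it was 0.38 ± 0.20 (adjusted p = 0.340). Without that array Krt8, Krt14 and Krt18 also passed in wild type lungs (0.52, adjusted p = 0.00677; 0.95, adjusted p = 0.00119; 0.64, adjusted p = 0.000896).

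**Figure D3:**
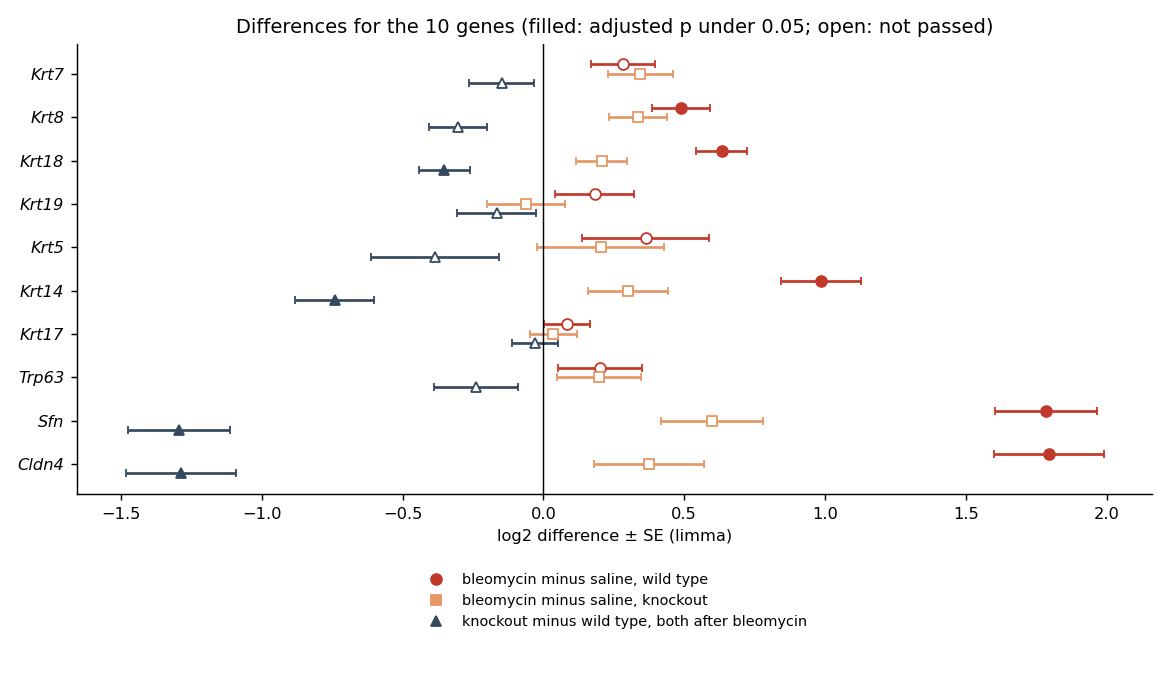
Log2 differences of the 10 genes (points ± SE, limma; filled where the adjusted p is under 0.05) for bleomycin against saline in each genotype and for knockout against wild type after bleomycin. Sfn and Cldn4 have the largest values in wild type (1.78 and 1.79), and none of the 10 knockout responses is filled.

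In knockout lungs 0 of the 10 genes passed the test for bleomycin (limma), where 3.26% of all genes were called and 1.98% were called higher. At an unadjusted p under 0.05 the count was 4 (Krt7, Krt8, Krt18 and Sfn), against 18% of all genes. The median log2 change was 0.25, against 0.01 over all genes. For 5 genes (Krt7, Krt8, Krt14, Krt18 and Sfn) the bleomycin arrays lay above the saline arrays, which was so for 15.2% of all genes.

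The responses of the genotypes differed for 2 of the 10 genes, both with the smaller response in knockout lungs, where 5.02% of all genes were called and 3% were called lower. The knockout response minus the wild type response, an interaction in the fit, was -1.19 ± 0.26 for Sfn (limma, adjusted p = 0.0226) and -1.42 ± 0.28 for Cldn4 (adjusted p = 0.0135). Without the first wild type bleomycin array these were -0.98 (adjusted p = 0.0280) and -1.22 (adjusted p = 0.0200). Sfn no longer passed when wild type saline replicate 1 (-1.16, adjusted p = 0.0519), knockout saline replicate 1 (-1.19, adjusted p = 0.0543) or 3 (-1.13, adjusted p = 0.0539) or knockout bleomycin replicate 1 (-1.05, adjusted p = 0.0605) was left out. Cldn4 passed with each of the 12 arrays left out in turn. For Krt5, Krt7, Krt17, Krt19 and Trp63 the differences were -0.16, 0.06, -0.05, -0.24 and -0.0035 and did not pass.

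After saline, 0 of the 10 genes differed between knockout and wild type lungs (limma; 0 also at an unadjusted p under 0.05), where 0.489% of all genes were called. Their log2 differences lay between -0.24 for Trp63 and 0.13 for Cldn4, and the arrays of every gene overlapped. After bleomycin 4 genes were lower in knockout lungs, where 7.89% of all genes were called lower. Sfn differed by -1.29 ± 0.18 (limma, adjusted p = 0.000570), Cldn4 by -1.29 ± 0.20 (adjusted p = 0.000925), Krt14 by -0.74 ± 0.14 (adjusted p = 0.00384) and Krt18 by -0.35 ± 0.09 (adjusted p = 0.0199). This comparison shares the wild type bleomycin arrays with the response of wild type lungs. For 7 genes (these 4 and Krt7, Krt8 and Trp63) the knockout arrays all lay below the wild type arrays, which was so for 15.4% of all genes. Krt7 nearly touched, at 11.565 on the highest knockout and 11.572 on the lowest wild type array. Trp63 was dim on all 12 arrays, and its 4 sets differed by -0.24, 0.07, -0.01 and -0.09.

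Krt8 had -0.30 ± 0.10 after bleomycin (limma, adjusted p = 0.0649; 0.0463 with a trended, robust prior). Without the first wild type bleomycin array it had -0.33 (limma, adjusted p = 0.0968). Krt18 no longer passed without wild type bleomycin replicate 3 (-0.28, adjusted p = 0.0787) or knockout bleomycin replicate 1 (-0.29, adjusted p = 0.0917) and when only these groups were fitted (adjusted p = 0.0582). The mean of the Krt14 probe sets differed by -0.42 (limma over genes, adjusted p = 0.0157). Singly they had -0.74, -0.68 and, for the dimmest, 0.16 (limma over probe sets, adjusted p = 0.00769, 0.00801 and 0.446). The set shared with Krt17 had 0.11 (adjusted p = 0.744). Without the first wild type bleomycin array Sfn had -1.08, Cldn4 -1.09, Krt14 -0.71 and Krt18 -0.36 (adjusted p = 0.00124, 0.00310, 0.0161 and 0.0467).

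Within the bleomycin groups the third array was the highest for 8 of the 10 genes in wild type and for 7 in knockout lungs. The second wild type array was the lowest of its group for 7 genes, and the first knockout array for 7. The first wild type array, lowest of its group in the pan-epithelial and alveolar type 2 lists, was the highest for Sfn and Cldn4.

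The rest of the keratin family was mostly dim. Of 48 measured keratin genes, 29 were dim in every group. Among the 41 outside the genes above, 2 rose with bleomycin in wild type lungs and 5 fell, where 14.4% of all genes were called lower (1 and 4 without the first wild type bleomycin array). Krt79, a keratin of hair follicle canals and sebaceous ducts, fell (-1.91, adjusted p = 1.95e-05; limma), as did the type I keratin Krt23 (-1.27, adjusted p = 9.35e-05). For both, the knockout response minus the wild type response was positive (1.71, adjusted p = 0.00669, and 1.48, adjusted p = 0.00568). In knockout lungs 0 of the 48 passed, with or without that array (limma; 4 higher and 2 lower at an unadjusted p under 0.05). With all arrays 3.26% of all genes were called in knockout lungs, and 18% had an unadjusted p under 0.05.

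**Figure D4:**
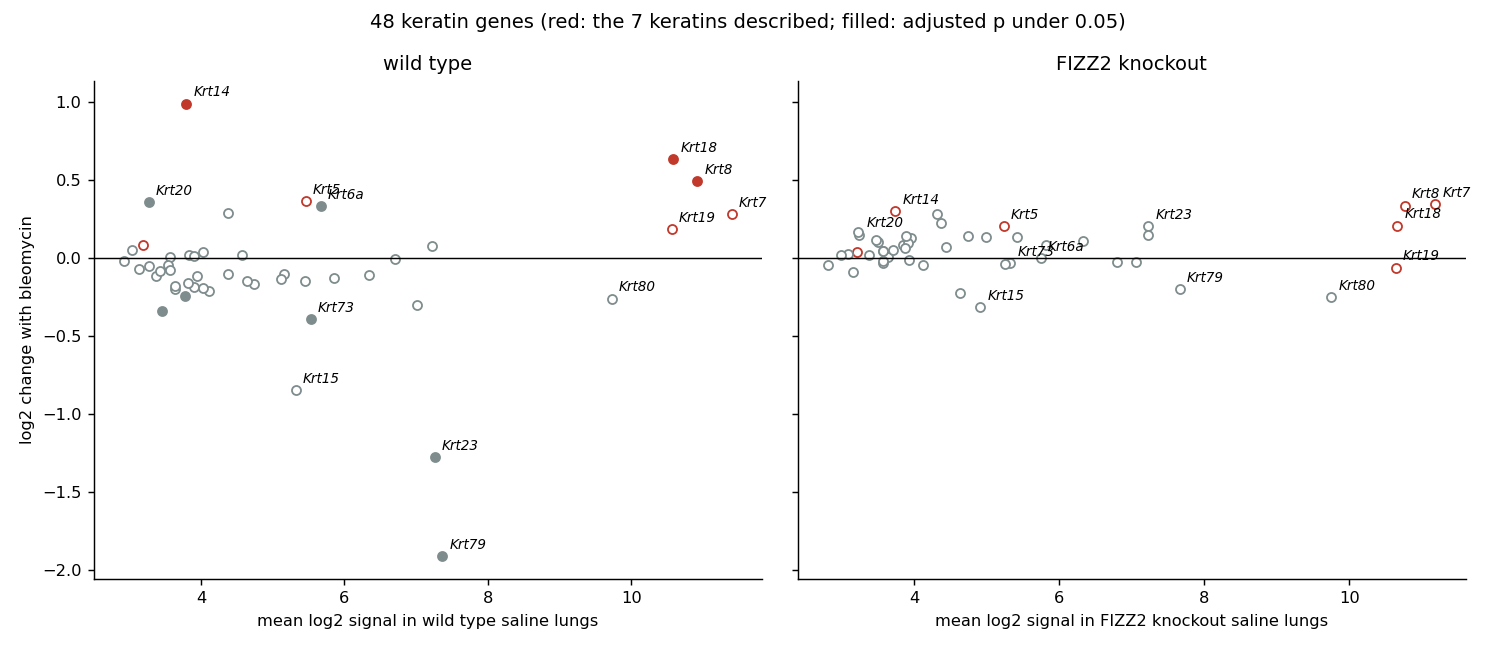
Log2 change with bleomycin against mean log2 signal in saline lungs for 48 keratin genes in wild type (left) and FIZZ2 knockout lungs (right); filled points have an adjusted p under 0.05 in limma. In wild type lungs Krt18 and Krt8 lie at 0.63 and 0.49 and Krt79 and Krt23 at -1.91 and -1.27, and no point of the knockout panel is filled.

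In wild type lungs 13.3% of all genes were called higher and 14.4% lower with bleomycin. Of 19 claudins other than Cldn4, 1 rose in wild type lungs and 5 fell (1 and 4 without the first wild type bleomycin array). The one that rose was Cldn2, which forms cation pores (1.68, adjusted p = 0.00175; limma). Those that fell included Cldn10 of club cells (-1.34, adjusted p = 0.00174) and Cldn5 of endothelium (-0.43, adjusted p = 0.00770), while Cldn7 (-0.23, adjusted p = 0.257) and the alveolar Cldn18 (0.12, adjusted p = 0.451) did not pass. In knockout lungs 0 of the 20 claudins passed, with or without that array (limma; 2 higher and 0 lower at an unadjusted p under 0.05). That is near the share of all genes called in knockout lungs, 3.26% with all arrays. Of the 6 other 14-3-3 genes, which most cells express, 3 rose in wild type lungs, Ywhah (0.31, adjusted p = 0.00852), Ywhag (0.23, adjusted p = 0.0310) and Ywhaz (0.45, adjusted p = 0.0347), and without that array 2 did, all but Ywhag.

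Of 17 measured genes of a list of 20 known from the transitional state, 16 rose in wild type lungs, with a median log2 change of 0.63, and 13 rose without the first wild type bleomycin array, where Cdkn2b (0.33, adjusted p = 0.0652; limma), Plaur (0.44, adjusted p = 0.0684) and S100a6 (0.26, adjusted p = 0.0653) no longer passed. Sprr1a, a cornified envelope precursor, changed by 2.21, adjusted p = 6.89e-06 (limma), the p53 target and cell cycle inhibitor Cdkn1a by 1.93, adjusted p = 6.75e-06, the integrin chain Itgb6, which activates TGF-beta, by 1.62, adjusted p = 3.44e-05, and the secreted chaperone Clu by 1.14, adjusted p = 1.49e-05. Tm4sf1 did not pass in limma (-0.28, adjusted p = 0.0617). Over all genes 13.3% were called higher with bleomycin in wild type lungs and 1.98% in knockout lungs. In knockout lungs 5 of the 17 rose, with a median of 0.22: Cdkn1a (1.25, adjusted p = 0.00267), Sprr1a (1.2, adjusted p = 0.00740), Itgb6 (0.92, adjusted p = 0.0172), Clu (0.57, adjusted p = 0.0192) and the lectin gene Lgals3 (0.44, adjusted p = 0.0340), the last named after its values were seen. The responses differed for Ndrg1 (-1.13, adjusted p = 0.00618) and Anxa1 (-0.49, adjusted p = 0.0404), and 7 of the 17 were lower in knockout than in wild type bleomycin lungs. Without that array the counts were 5, 2 and 7. With all arrays, 3% of all genes were called lower for the difference between responses. For knockout against wild type after bleomycin it was 7.89%. Lgals3, Anxa1 and Clu, for example, are also expressed outside the epithelium, and which cells carry the changes of this list was not tested.

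Of 16 measured basal and hemidesmosome genes, 3 rose in wild type lungs: the laminin chain Lamb3 (0.65, adjusted p = 0.0191; limma) and the integrin chains Itga6 (0.34, adjusted p = 0.0201) and Itgb4 (0.35, adjusted p = 0.0451). The hemidesmosome collagen Col17a1 fell (-1.37, adjusted p = 0.000187). The basal keratin Krt15 (-0.85, adjusted p = 0.101) and the basal cell receptor Ngfr (-0.10, adjusted p = 0.515) did not pass. The shares of the list that rose and fell, 3 and 1 of 16, are near or under those of all genes (13.3% higher and 14.4% lower). Without the first wild type bleomycin array 3 rose and 1 fell, with the laminin chain Lama3 (0.55, adjusted p = 0.00837; limma) and the adhesion gene Icam1 (0.35, adjusted p = 0.0454) in place of Itga6 and Itgb4. Of 10 desmosome and plakin genes, which tie keratin filaments to junctions, 3 fell, Ppl (-0.88, adjusted p = 0.00124), Dsp (-0.59, adjusted p = 0.00535) and Pkp2 (-0.40, adjusted p = 0.0417), and Plec rose (0.29, adjusted p = 0.0465). Without that array Pkp2 (-0.26, adjusted p = 0.162) and Plec (0.19, adjusted p = 0.175) no longer passed.

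Of 13 pan-epithelial markers, 0 rose and 3 fell with bleomycin in wild type lungs (limma; 2 and 4 at an unadjusted p under 0.05), and Epcam (0.05, adjusted p = 0.831) and Cdh1 (-0.08, adjusted p = 0.635) did not pass. Their mean log2 level lay between 8.73 and 8.85 on wild type saline, 8.26 and 8.83 on wild type bleomycin, 8.65 and 8.80 on knockout saline and 8.79 and 8.92 on knockout bleomycin arrays. Of 11 alveolar type 2 markers 5 fell in wild type lungs, where 14.4% of all genes were called lower. Another count, 9, were higher in knockout than in wild type bleomycin lungs, a comparison in which 7.52% of all genes were called higher. Of the pan-epithelial markers 3 were higher in that comparison. Without the first wild type bleomycin array, 4 alveolar type 2 markers fell in wild type lungs. Higher in knockout than in wild type bleomycin lungs were 5. In knockout lungs 3 rose (0 with that array; limma), where 2.68% of all genes were called higher (1.98% with it). Their knockout log2 changes do not depend on that array, which enters the test only through the shared spread. Of the pan-epithelial markers, without that array, 1 rose and 3 fell in wild type lungs. In knockout lungs 1 of them rose, and 1 was higher between the genotypes. Of 14 alveolar type 1 markers 1 rose (Pdpn, 0.34, adjusted p = 0.0229) and 2 fell (Hopx, -0.40, adjusted p = 0.00562; Cav1, -0.34, adjusted p = 0.0100), shares near or under those of all genes, and without that array 3 rose and 2 fell.

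Of 8 club cell markers 6 fell in wild type lungs, and of 10 ciliated cell markers 8, with or without the first wild type bleomycin array. Over all genes 14.4% were called lower in that comparison, and 11.4% without that array. In knockout lungs 0 of either list passed (limma; 0 higher and 2 lower among club and 0 higher and 1 lower among ciliated cell markers at an unadjusted p under 0.05). In knockout lungs 3.26% of all genes were called and 1.29% were called lower, so 0 in lists this short is near the share of all genes. After bleomycin 6 club and 6 ciliated cell markers were higher in knockout than in wild type lungs, and 3 and 5 without that array. The shares of all genes called higher there were 7.52% and 4.59%. The response itself differed between the genotypes for 1 of each list (limma), where 5.02% of all genes were called. At an unadjusted p under 0.05 the difference was positive for 6 club and 8 ciliated cell markers and negative for 0. Of 11 alveolar type 2 markers 2 were called in that test, and 8 were positive and 0 negative at that p. Over all genes 21.8% had such a p, in either direction. The part of cell numbers in the changes of Krt8, Krt18, Sfn and Cldn4, and in their differences between the genotypes, was not tested.

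Mesothelium and squamous epithelium also express some of these keratins. Of 10 mesothelial markers 1 rose in wild type lungs (Msln, 1.22, adjusted p = 0.0100; limma) and 2 fell (Gpm6a, -0.63, adjusted p = 0.00412; Bnc1, -0.55, adjusted p = 0.0223), while Upk3b (-0.10, adjusted p = 0.752) and Wt1 (0.29, adjusted p = 0.160) did not pass. Their mean log2 level lay between 6.65 and 7.13 on wild type saline, 6.76 and 6.94 on wild type bleomycin, 6.30 and 6.74 on knockout saline and 6.36 and 6.70 on knockout bleomycin arrays. Msln was lower in knockout than in wild type bleomycin lungs (-1.57, adjusted p = 0.00479). The median log2 difference of the 10 markers between knockout and wild type lungs was -0.32 after bleomycin and -0.47 after saline. After saline 0 were called, and 5 were lower at an unadjusted p under 0.05 (limma), against 10.1% of all genes in either direction. The part of mesothelium in the genotype differences was not tested. Of 13 squamous markers 11 were dim in every group, and the wound keratin Krt6a rose (0.33, adjusted p = 0.00843). Their mean level lay between 4.15 and 4.24 over the 12 arrays. Of the thymic epithelial markers 1 of 6 rose (Ctsl, 0.65, adjusted p = 0.000114), of the cartilage markers 1 of 8 fell (Chad, -1.98, adjusted p = 0.000703) and of the cardiac muscle markers 10 of 10 fell. Apart from the cardiac list these shares are near or under those of all genes (13.3% higher and 14.4% lower). Without the first wild type bleomycin array 8 cardiac markers and 1 mesothelial marker fell, and the other wild type counts of these lists were the same.

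**Figure D5:**
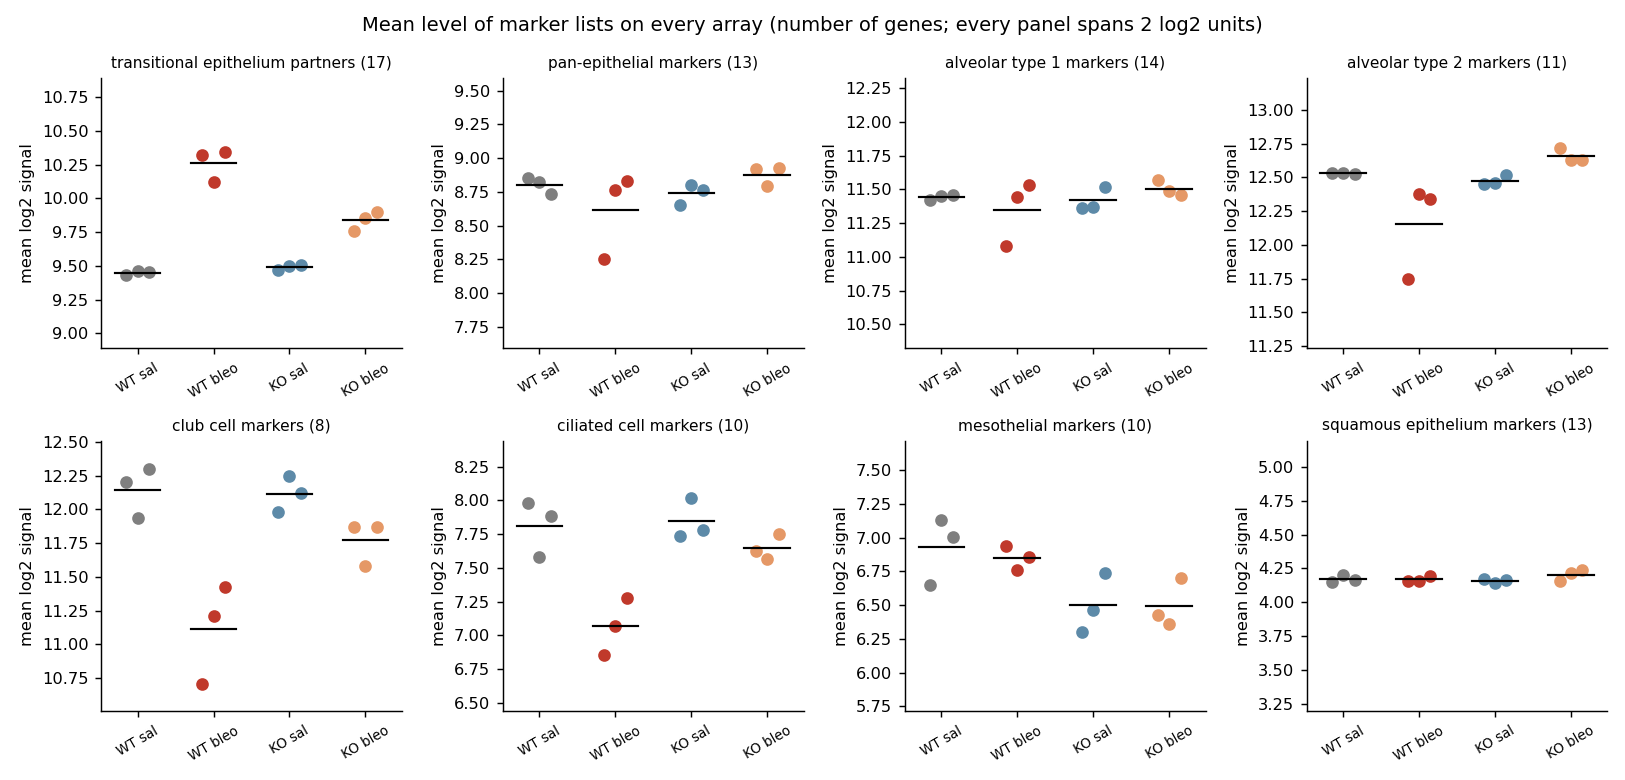
Mean log2 signal of marker lists on each of the 12 arrays (points, 3 per group; the line is the group mean; WT, wild type; KO, FIZZ2 knockout; sal, saline; bleo, bleomycin). The partners of the transitional state are highest in wild type bleomycin lungs (10.12 to 10.35), and the first wild type bleomycin array is the lowest in the pan-epithelial list (8.26).

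Profiles over the 12 arrays were centred on their means and compared by the root mean square difference, in log2 units. The genes followed here were not ranked against each other, so Sfn and Cldn4, for example, may lie closer to each other than to the genes listed. For the genes with the smallest p, the other named genes with the closest profiles are given. For Sfn, whose signal spans 2.41 log2 units, they were Tubb6 (0.0985), Fam167b (0.125) and Espl1 (0.153). For Cldn4, spanning 2.37, they were Zwilch (0.175), Tubb6 (0.184) and Brca1 (0.197), and for Krt14, spanning 1.46, they were Sgo1 (0.122), Ccdc86 (0.127) and Susd2 (0.129). The group means of Tubb6, a tubulin gene close to both Sfn and Cldn4, were 7.35 in wild type saline, 9.02 in wild type bleomycin, 7.19 in knockout saline and 7.85 in knockout bleomycin lungs.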

How the data were processed

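RNA of 12 lung samples was measured on 12 Affymetrix arrays. The authors deposited 1 log2 value per probe set; the submitters' processing notes name RMA, affy and limma, with no versions. With 3 arrays a group, precision is limited by that number.

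GEO's platform annotation gives 34958 of 45101 probe sets 1 gene, 932 several and 9211 none, and 34754 of the first matched a RefSeq gene by Entrez identifier. Each gene was represented by its brightest probe set (mean over 12 arrays), and 18194 genes were tested in 1 limma fit of group means over all arrays (limma 3.58.1, R 4.3.3), with no filter or block and Benjamini-Hochberg adjustment per comparison at 0.05. Probe sets were also fitted without choosing. The fit was tested on simulated data. Figures were drawn with matplotlib 3.10.9.

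The 10 genes and the lists were chosen with earlier results of these data known. All 10 genes are described. From the lists, up to 4 called genes with the smallest p were to be named, with some textbook genes that did not pass. For the pan-epithelial, alveolar type 2, club cell, ciliated cell and cardiac muscle lists, the called genes are given as counts. Alternatives were a minimum mean of 5, array medians subtracted, repeated quantile normalization, a trended and robust prior, the mean of probe sets, a fit of all probe sets, only the compared groups, array weights, a 2-fold minimum, a replicate block and each array left out; for the lists, leaving out wild type bleomycin replicate 1 was added after seeing the data. Same-numbered samples correlated at -0.30 to 0.20 in their deviations from group means, so the numbers were not taken as pairs.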

Additional observations from a re-analysis of the deposited data

Results flagged for a closer look

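The bleomycin responses of the genotypes differed, in a test of the difference itself, for 2 of the 10 genes. Over all genes 5.02% were called in that test and 3% were called lower. The knockout response minus the wild type response was -1.19 on the log2 scale for Sfn (limma, adjusted p = 0.0226) and -1.42 for Cldn4 (adjusted p = 0.0135). Sfn lost its call with each of 4 single arrays left out (limma, adjusted p = 0.0519 to 0.0605), and Cldn4 kept its call throughout.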

How the results depend on the processing

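Over 50 combinations of gene and comparison, 1075 values were recomputed under alternatives. Of these, 12 lost a call, 12 gained one and 0 reversed a called direction. Several alternatives cannot move the log2 change, such as the 2-fold minimum, the robust prior or leaving out arrays of other groups. No direction could reverse under those, and some of the lost calls came from the 2-fold minimum alone. The number of the 10 genes called for bleomycin in wild type lungs (5) was 2 with a 2-fold minimum and 5 to 6 with single arrays left out. For bleomycin in knockout lungs (0) it was 1 with only the compared groups, 2 with array weights, where Krt8 (0.35, adjusted p = 0.0485) joined Sfn, and 0 to 1 with single arrays left out. For the difference between responses (2) it was 4 with array weights and 1 to 3 with single arrays left out. For knockout against wild type it was 0 under all alternatives after saline, and after bleomycin (4) it was 2 with a 2-fold minimum and 3 to 4 with single arrays left out. A replicate block, for numbers that only name samples, left these counts at 5, 0, 2, 0 and 4. The minimum mean of 5 left Krt14, Krt17 and Trp63 untested. Over all genes, the number called ran from 3909 to 7175 for bleomycin in wild type (5045), from 211 (without knockout saline replicate 2) to 1286 in knockout lungs (594), from 380 (without knockout saline replicate 1) to 1888 for the difference (914; 601 with the block), from 24 (without knockout saline replicate 3) to 1105 after saline (89) and from 1653 (without knockout bleomycin replicate 1) to 3138 for the genotypes after bleomycin (2804), the 2-fold minimum aside. With array medians subtracted, the share of calls that were higher was 75.5% against 60.6% in knockout lungs, 50.7% against 40.4% for the difference (51.2% with quantile normalization repeated) and 48.1% against 60.7% after saline. The causes were not tested. Signal over background limits Krt14, Krt17 and Trp63 on nearly all arrays and Cldn4 in saline lungs.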
